A study of Mus musculus with 6 samples.

Results

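The Fat and Dachsous cadherins and their kinase were followed as 7 genes chosen by name: the 4 Fat cadherin genes Fat1, Fat2, Fat3 and Fat4, the 2 Dachsous cadherin genes Dchs1 and Dchs2, and Fjx1. All 7 were found among the 78317 gene rows of the deposited expression table. The table covers 6 RNA sequencing libraries of MCEC, an immortalised line from mouse cardiac endothelium. The 3 control libraries are of wild-type cells, and the 3 knockdown libraries are of cells with a short hairpin RNA against Fat4 (ShFat4). The sources used here do not say whether the knockdown cells are 1 clone or whether the controls carry a hairpin of their own. They do not tie replicates to separate cultures either, and the p-values below therefore cover a spread that may be technical.

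Fat and Dachsous proteins are very large cadherins with long rows of extracellular cadherin repeats. Fat4 on one cell binds Dchs1 on its neighbour, and Fjx1, a kinase of the Golgi apparatus, is the counterpart of fly Four-jointed, which phosphorylates the repeats and so tunes that binding. Signalling from this pair feeds into planar cell polarity and the Hippo pathway. Fat1, Fat2 and Fat3 form a separate branch of the family, known mainly for roles in actin organisation, cell contact and migration. The comparison asks which of these genes the cells express, and whether any other member is higher where Fat4 is targeted.

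The 7 genes lie on 6 chromosomes of the GRCm39 build, as the deposited table places them. The ranges run from the first to the last exon base. Fat1 (ENSMUSG00000070047) lies on chromosome 8, 45388484 to 45505294, and Fat2 (ENSMUSG00000055333) on chromosome 11, 55141435 to 55227390. Fat3 (ENSMUSG00000074505) lies on chromosome 9, 15821485 to 16412581, and Fat4 (ENSMUSG00000046743) on chromosome 3, 38941089 to 39066134. Dchs1 (ENSMUSG00000036862) lies on chromosome 7, 105402197 to 105436861. Dchs2 (ENSMUSG00000102692) lies on chromosome 3, 83035255 to 83264516, the same chromosome as Fat4. Fjx1 (ENSMUSG00000075012) lies on chromosome 2, 102279711 to 102282844, and is a single exon block. The cadherin genes have 17 to 31 exon blocks that add up to 10.78 kb (Dchs2) to 21.48 kb (Fat3), against 3.13 kb for Fjx1. Each cadherin is thus longer than at least 98.0% of all rows of the table.

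Relatives of this size could in principle exchange reads, so the stretches they share were read from the coding sequences. The longest identical run between each pair of members was taken from the longest coding transcript in GENCODE release M21, on GRCm38. It was 16 to 29 bases long for the 15 pairs of cadherins and 11 to 13 bases for the 6 pairs with Fjx1. Of words of 31 bases, 0 were shared between members. To make that limit visible, the runs of Fat4, the targeted gene, with each other cadherin are shown, 5′ to 3′ on the coding strand. The longest run of all and the run between Dchs1 and Dchs2 are shown with them. Capitals mark the letters AANGANAA, in which N is any base.
Fat1 and Fat3: ctgcaagtgacagctctggacAAAGACAA
Fat1 and Fat4: tcAATGATAAcccacct
Fat2 and Fat4: gatatcAATGACAAccc
Fat3 and Fat4: tagaagatgtgAATGACAA
Dchs1 and Fat4: gtggccacagatgggggc
Dchs2 and Fat4: actgacatcAATGACAAc
Dchs1 and Dchs2: gtgAATGACAAtgagccc

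Cadherin repeats are joined by calcium-binding linkers rich in asparagine and aspartate, whose codons resemble the marked letters. The letters, searched on the coding strand, stood in 13 of the 15 runs between cadherins. No such share was computed for short runs shared by other genes, so this count has no background. The coding sequence of Fjx1 holds 0 copies on either strand, so none of the 6 runs with Fjx1 could hold them. Over whole coding sequences the coding strand held 29 copies in Fat4, 28 in Fat3, 26 in Fat1, 17 in Fat2, 16 in Dchs2, 11 in Dchs1 and 0 in Fjx1. The opposite strand held 0 to 5 copies. Of 420 other protein-coding transcripts of at least 10 kb, untranslated parts included, 99.0% held the letters on the coding strand and 96.7% on the other, with a median of 0.73 copies per kb. The coding sequences of Fat3 (2.05 per kb), Fat4 (1.94), Fat1 (1.87) and Dchs2 (1.59) lay above the 95th percentile of those transcripts, 1.48 per kb, and those of Fat2 (1.3) and Dchs1 (1.11) below it.

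Long noncoding genes on the opposite strand overlap exons of 5 of the 6 cadherins, all but Fat3. The table lists C230034O21Rik, which overlaps 1233 exon bases of Fat4, at 0 counts in 5 libraries and 1 in knockdown replicate 3. Gm9908 overlaps 175 exon bases of Fat1 and had 17 to 32 counts, against 1164 to 1812 for Fat1. Gm57787 overlaps 648 exon bases of Dchs1 and had 1.25 to 2.62 counts. The sources used here do not state the strand setting, and reads in these overlaps cannot be told apart.

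Library totals ranged from 10305810 to 11870091 counts. A count of 0 allows 3 counts, or 0.244 to 0.293 CPM (the count relative to a library size scaled by TMM), and such limits and the counting intervals below cover counting error only. The labelled cell type was weakly borne out by its markers. Of 15 endothelial markers, 5 had a mean of 1 CPM or more. A count of 0 in all libraries was found for 6 (Tie1, Vwf, Erg, Cldn5, Emcn and Robo4). Cdh5 and Pecam1, named here for their known role and not by the rule for named genes, lay under 1 CPM. Endothelial markers, led by Cd34 and Eng, summed to 92.96 to 102.35 CPM in the controls and 84.7 to 90.2 CPM in the knockdown, and 0 rose and 2 fell. Mesothelial and epicardial markers, led by Upk1b and Upk3b, summed to 1697 to 1791 and 1513 to 1558 CPM, with 9 of 10 at 1 CPM or more, 0 higher and 3 lower. Fibroblast markers, led by Col1a1 and Col3a1, summed to 2372 to 2455 and 1768 to 1931 CPM (0 higher, 2 lower). Smooth muscle and pericyte markers, led by Tagln and Acta2, summed to 603 to 679 and 692 to 754 CPM (1 higher, 0 lower). Cardiomyocyte markers, led by Myl7 and Tnnt2, summed to 7.63 to 9.69 CPM in the controls and 14.4 to 19.1 CPM in the knockdown (1 higher, 0 lower). Most of that sum was Myl7, with means of 7.62 CPM in the controls and 14.8 CPM in the knockdown. Myh6, Ryr2, Nppa and Pln had 0 counts in all libraries. Leukocyte markers, led by Cd68 and Csf1r, summed to 3.44 to 4.75 and 3.67 to 4.21 CPM (0 higher, 0 lower). All sums but the leukocyte one differed between groups without overlap, as did the CPM of 34.9% of all tested genes. The test below covered 5 endothelial, 9 mesothelial and epicardial, 5 fibroblast, 2 smooth muscle and pericyte, 2 cardiomyocyte and 1 leukocyte markers. Of all tested genes, 8.44% fell and 8.94% rose. The part of these shifts in the results below was not tested.

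Fat1 was by far the most abundant member, and the other 6 genes ranged from scarce to undetected. In control replicates 1, 2 and 3 Fat1 had 1164, 1497 and 1812 counts, or 113, 132 and 147 CPM. In knockdown replicates 1, 2 and 3 it had 1343, 1250 and 1265 counts, or 120, 122 and 115 CPM. The knockdown libraries thus lay inside the control range, close to its lower end. Per kb of exon, the mean Fat1 level was 8.34 ± 1.10 CPM in the controls and 7.59 ± 0.25 CPM in the knockdown (SD, n = 3). This level per kb was higher than that of 80.1% of protein-coding genes, those without counts included.

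Fjx1 came next. It had 42, 54 and 35 counts in the controls, replicates 1 to 3, against 37, 23 and 33 after knockdown, or 1.24 ± 0.31 and 0.91 ± 0.17 CPM per kb (SD, n = 3). Fat4 followed, with 10, 22 and 31.5 counts in the controls and 8.5, 10 and 9 in the knockdown libraries. Per kb that is 0.106 ± 0.047 CPM without and 0.0495 ± 0.0067 CPM with the hairpin (SD, n = 3). The per kb ranges of Fat1, Fjx1 and Fat4 over the 6 libraries did not overlap each other, so this part of the order is beyond the spread between libraries. The Fat4 level was higher than that of 45.8% of protein-coding genes, those without counts included. On the same scale Dchs1, with 1.25 counts in all, lay above 32.3%.

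The remaining 4 members were near or under the level of 3 counts in a library. Dchs2 had 3, 2 and 2 counts in the controls and 5, 4 and 9 after knockdown, or 0.0195 ± 0.0065 and 0.0510 ± 0.0214 CPM per kb (SD, n = 3). In control libraries its level per kb lay below that of Fat4 in every library, whereas in knockdown libraries the values of both genes overlapped. Fat2, whose protein is best known from cerebellum and epithelia, had 2 counts in control replicate 1, 1 count in knockdown replicate 3 and 0 in the other 4 libraries. Dchs1, the usual partner of Fat4, had 1 count in control replicate 2, 0.25 in control replicate 3 and 0 elsewhere. Fat3 had 0 counts in all 6 libraries. For Fat3 the exact Poisson interval (95%) of the summed counts reaches 0.108 CPM over the controls and 0.114 CPM over the knockdown. Fat2, Dchs1 and Fat3 cannot be ordered among themselves at this depth. Reads per kb assume that reads fall along the whole transcript, which the sources used here do not state. Without division by length the order of the 7 genes was the same.

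**Figure D1:**
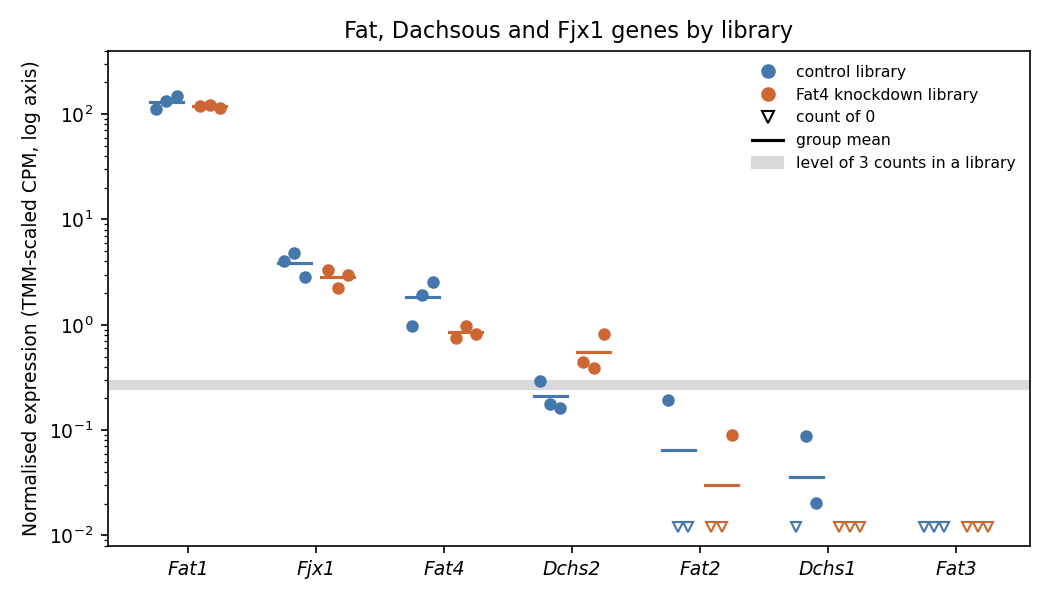
Normalised expression of the 7 genes (TMM-scaled CPM, log axis) in each control (blue) and knockdown (orange) library, with group means as lines and counts of 0 as open triangles at the foot. Fat1 lies above 100 CPM in every library, Fjx1 and Fat4 between 0.757 and 4.76 CPM, and the other 4 genes at or below 0.815 CPM, where the grey band marks 3 counts in a library.

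Within the Fat family nearly all transcript was Fat1. Fat1 made up 98.4% to 99.0% of the summed Fat level per kb in control and 99.3% to 99.4% in knockdown libraries. The share of Fat4 ran from 0.776% (replicate 1) to 1.56% (replicate 3) among the controls and was 0.574%, 0.724% and 0.644% after knockdown. As a share of the Fat family in the same library the groups did not overlap, whereas the CPM of Fat4 itself did overlap between them. The shares came closest in control replicate 1 and knockdown replicate 2, with 10 Fat4 counts each. Their gap came from Fat1, at 113 and 122 CPM, since Fat4 was at 0.969 and 0.977 CPM. The CPM of 34.9% of all tested genes did not overlap between groups, and that of 17.5% lay lower in every knockdown library. No such background was computed for shares. Per kb there was 128, 74.6 and 63.1 times as much Fat1 as Fat4 in the 3 controls, against 173, 137 and 154 times after knockdown.

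The test for change between knockdown and control was made across all genes with enough counts (the quasi-likelihood test of edgeR, called at a Benjamini-Hochberg adjusted p under 0.05). Of the 7 members, 3 passed the filter on low counts, and 1 of these, Fat4, changed, downward. Of all 13372 genes tested, 17.4% changed in either direction, 8.44% downward and 8.94% upward. Among tested genes with a mean of 1 to 2 CPM, as Fat4 has, 4.3% changed. Of 1210 tested genes with 10 kb of exon or more, 14.3% were lower and 2.98% higher.

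The targeted gene, Fat4, averaged 1.82 ± 0.80 CPM without and 0.85 ± 0.11 CPM with the hairpin (SD, n = 3). The log2 fold change was -1.17 with an SE of 0.35, and edgeR gave an adjusted p of 0.033. Its 95% interval runs from 0.265 to 0.749 of the control level. Control replicate 1, at 0.969 CPM, lay inside the knockdown range of 0.757 to 0.977 CPM, whereas control replicates 2 and 3 lay above it at 1.94 and 2.56 CPM. From summed counts alone, 64 in control and 28 in knockdown after rounding, the ratio was 0.457 (exact 95% interval 0.282 to 0.724). Leaving out any single library other than control replicate 1 (control replicate 2 or 3, or knockdown replicate 1, 2 or 3) ended the call, where edgeR adjusted p-values ran from 0.0809 to 0.205 and log2 fold changes from -1.28 to -0.82. In these bulk libraries, fewer cells with the transcript and less of it per cell cannot be told apart. The sources used here do not say where in the transcript the hairpin binds.

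Fat1, the most abundant relative, was not higher in the knockdown. Its mean was 131 ± 17.2 CPM in the controls and 119 ± 3.91 CPM after knockdown (SD, n = 3). The log2 fold change was -0.14 with an SE of 0.080 and did not pass (edgeR adjusted p = 0.257). The 95% interval of its fold runs from 0.807 to 1.02, so a rise above 1.02-fold lies outside it. Without control replicate 1 the log2 fold change was -0.23 and passed the test (edgeR adjusted p = 0.014). Corrected for exon length and GC content, it was 0.047, with an interval of 0.937- to 1.14-fold (edgeR adjusted p = 0.709). The summed level of Fat1, Fat2 and Fat3 was 131 ± 17.1 CPM against 119 ± 3.86 CPM (SD, n = 3), which is almost entirely Fat1.

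Fjx1, the kinase gene, did not pass the test. It was at 4.07, 4.76 and 2.84 CPM in the controls, replicates 1 to 3, and at 3.30, 2.25 and 2.99 CPM after knockdown. Control replicates 1 and 2 lay above all knockdown libraries and control replicate 3 inside their range. The log2 fold change was -0.43 (SE 0.22, edgeR adjusted p = 0.185), with a 95% interval of 0.540- to 1.02-fold. From summed counts alone, 131 in control and 93 in knockdown, the ratio was 0.742 (exact 95% interval 0.563 to 0.976). Fitted without the filter, Fjx1 had an edgeR unadjusted p of 0.029 and an adjusted p of 0.203. Fjx1 missed the threshold under every alternative run for it, with an adjusted p between 0.0672 (control replicate 3 left out) and 0.561 (control replicate 2 left out).

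Dchs2, a Dachsous gene whose partners are less well known than those of Dchs1, was the one member with more counts in every knockdown library than in any control library. It stood at 0.291, 0.176 and 0.162 CPM in the controls, replicates 1 to 3, and at 0.445, 0.391 and 0.815 CPM after knockdown. Its counts were too low for the filter, so the test was not made for it. Summed counts of 7 and 18 give a ratio of 2.69 (exact 95% interval 1.07 to 7.62). Of 1092 genes that also missed the filter and had 20 to 30 counts in all, 6.41% lay higher in every knockdown library, 12.2% did not overlap in either direction, and 2.01% had a counting interval wholly above 1. A two-sided exact permutation test gave p = 0.1, the smallest that 3 against 3 allows. Adjusted over the 4 members tested this way (Fat1, Fat4, Fjx1 and Dchs2), it was 0.4. The same permutation test gave p = 0.2 for Fat4, 0.3 for Fjx1 and 0.4 for Fat1, each 0.4 adjusted. Fitted without the filter, its log2 fold change was 1.37 (SE 0.62, edgeR adjusted p = 0.195, unadjusted p = 0.0273), which did not pass. Without knockdown replicate 3, which held 9 of the 18 counts, the log2 ratio of group means was 0.995, against 1.39 with it.

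For the other 3 members the depth cannot show a change. Fat2 had 2 counts in control and 1 in knockdown libraries, Dchs1 1.25 and 0, and Fat3 0 and 0, all at or under 3 counts a group, so no fold is given. The exact Poisson intervals over the knockdown libraries reach 0.171 CPM for Fat2 and 0.114 CPM for Dchs1. The summed level of Dchs1 and Dchs2, both ligand-type cadherins, was 0.246 ± 0.056 CPM against 0.55 ± 0.23 CPM (SD, n = 3).

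**Figure D2:**
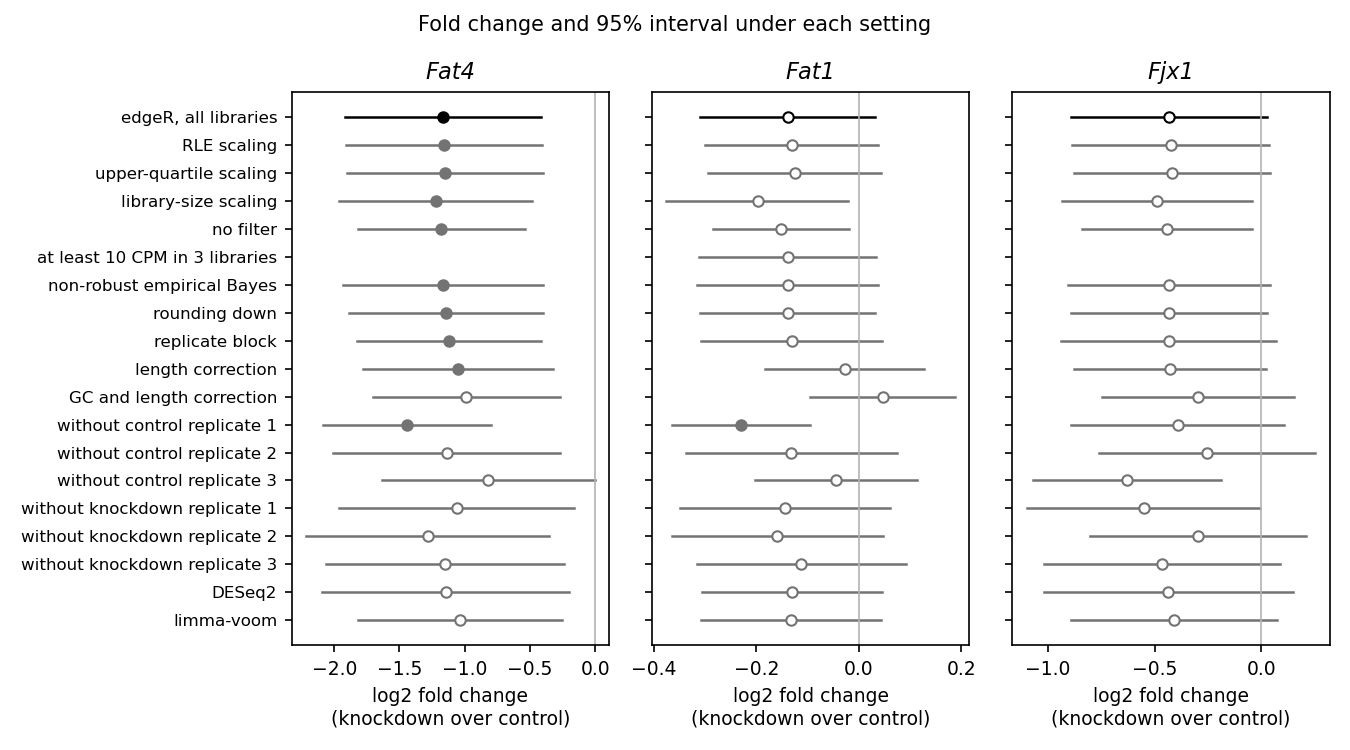
Log2 fold change of knockdown over control (points) with its 95% interval (lines) for Fat4, Fat1 and Fjx1 under each setting; filled points have an adjusted p under 0.05, and DESeq2, shown with a normal interval, gave Fat4 no adjusted p. Fat4 lies below 0 throughout, from -1.44 to -0.82, while Fat1 lies between -0.23 and 0.047 and passes only without control replicate 1.

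Exon length moved with the groups. Among tested genes with a mean of at least 5 CPM, the 1038 with 10 kb of exon or more had a median log2 fold change of -0.099, and 15.5% of them were lower and 3.18% higher. The 1810 genes under 2 kb had a median of 0.13, with 4.14% lower and 27.8% higher. Within the controls, the median of the longest class lay 0.024, 0.047 and 0.082 above the mean of each gene (log2) in replicates 1, 2 and 3. Fat1 deviated from its own mean by -0.14, 0.087 and 0.25 in the same libraries, and Fat4 by -0.30, 0.70 and 1.10. Control replicate 3 was the highest and control replicate 1 the lowest of the controls in all of these. With a correction for length alone, Fat1 went to a log2 fold change of -0.027 (edgeR adjusted p = 0.846), and Fat4 to -1.05 (0.0468). With GC content added, Fat4 went to -0.99 and an edgeR adjusted p of 0.0662. Fjx1, at 3.13 kb, was little changed by length alone, at -0.43, and stood at -0.30 with GC content added. Dchs2, at 10.78 kb, lay in the opposite direction to the long genes.

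**Figure D3:**
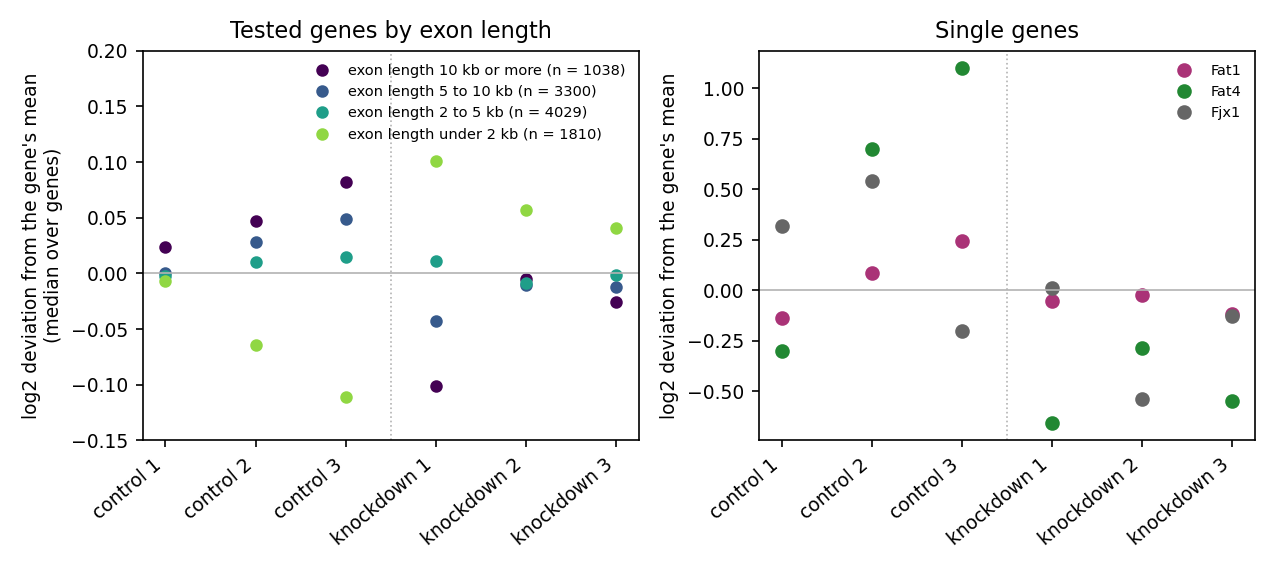
Left, median log2 deviation of tested genes from their own mean over the 6 libraries, by exon length class; right, the same deviation for Fat1, Fat4 and Fjx1. Genes of 10 kb or more sit above 0 in the 3 control libraries and below 0 in the 3 knockdown libraries, and genes under 2 kb the other way round.

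Of 16 genes for known or proposed partners of Fat and Dachsous proteins, 15 could be tested, 0 rose and 2 fell. Of all tested genes, 8.94% rose and 8.44% fell. The partner genes had a median log2 fold change of -0.088 (all tested genes -0.012, tested genes of 10 kb or more -0.097). Most of the partner genes have less than 10 kb of exon. Their median was 0.016 with GC and length correction, and 3 of them were lower without control replicate 1. Fbxl7 showed by far the greater change. It encodes an F-box protein, a substrate adaptor of a ubiquitin ligase, whose fly counterpart binds the intracellular part of Fat and acts downstream of it. Fbxl7 (ENSMUSG00000043556, GRCm39 chromosome 15, 26540545 to 26895666) had 52, 76 and 83 counts in the controls, replicates 1 to 3, and 31, 22 and 27 after knockdown. That is 5.04, 6.70 and 6.74 CPM against 2.76, 2.15 and 2.44 CPM, so every knockdown library lay below every control library. Such a separation downward was seen in 17.5% of all tested genes.

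Fbxl7 averaged 6.16 ± 0.97 CPM in the controls and 2.45 ± 0.31 CPM after knockdown (SD, n = 3), a 2.51-fold lower level. The log2 fold change was -1.33 with an SE of 0.18, at an edgeR adjusted p of 0.000253. Among the 1129 genes that fell, 15, Fbxl7 included, fell by at least this much. The call held in all 17 alternatives that could test it, with log2 fold changes from -1.44 to -1.24, corrections for length and GC content included. The filter at 10 CPM removes it. With 6.53 kb of exon it is shorter than the cadherins. In control replicate 1, where Fat4 had 10 counts and lay inside the knockdown range, Fbxl7 was at 5.04 CPM, above all knockdown libraries. That is 1 library with few Fat4 counts, and whether Fbxl7 follows Fat4 was not tested.

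The other partner gene that fell was Taok1, a kinase linked to Fat1 and the Hippo cascade. Its mean was 138 ± 8.35 CPM in the controls and 116 ± 13.1 CPM after knockdown (SD, n = 3), at a log2 fold change of -0.25 and an edgeR adjusted p of 0.0341. Length correction ended the call (edgeR adjusted p = 0.11), as did leaving out control replicate 2 or 3 or knockdown replicate 1 or 3 (0.0643 to 0.165). The other 13 tested partner genes did not pass. Among them, named here for their known role and not by the rule for named genes, Amotl1, a junction protein gene tied to Fat4 in heart, stood at 99.3 ± 4.28 and 91.6 ± 8.84 CPM (SD, n = 3, edgeR adjusted p = 0.292). Lix1, a relative of fly Lowfat, was too scarce to test.

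Of 17 Hippo pathway genes tested, 0 rose and 6 fell (median log2 fold change -0.12). Of all tested genes, 8.94% rose and 8.44% fell (median -0.012). Of tested genes with 10 kb of exon or more, 2.98% rose and 14.3% fell (median -0.097). Wwc2 and Wwc1, which encode scaffolds upstream of the Lats kinases, had log2 fold changes of -0.39 and -0.41, and their calls held in all 18 alternatives. Tead3 (-0.30) and Tead2 (-0.26), transcription factors that bind DNA with YAP, fell as well, and both calls were lost with GC and length correction and without control replicate 2 or knockdown replicate 2. Tead2 also lost its call without control replicate 3 or knockdown replicate 1. GC and length correction left 3 genes lower and 1 higher. Mob1b, the higher one, named after its value was seen, also passed upward with RLE or upper-quartile scaling, the 10 CPM filter, length correction, and without knockdown replicate 3. Without control replicate 2 or knockdown replicate 2, 2 genes were lower.

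Of 15 core planar cell polarity genes, 10 could be tested, 0 rose and 2 fell (median log2 fold change -0.15). Of all tested genes, 8.94% rose and 8.44% fell (median -0.012). The 2 lower polarity genes were Vangl1, a membrane component (log2 fold change -0.27, edgeR adjusted p = 0.0191), and Dvl2, a cytoplasmic adaptor (-0.24, edgeR adjusted p = 0.03). With GC and length correction 1 was lower and 1, Dvl1, named after its value was seen, higher. Without control replicate 2, knockdown replicate 1 or knockdown replicate 2, and by DESeq2, 0 were lower. Length correction, or leaving out control replicate 3 or knockdown replicate 3, left 1 lower, and 3 were lower without control replicate 1 or with library-size scaling.

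Other non-classical cadherins were mostly too scarce to test. Of 14 listed, 3 could be tested and 0 passed the edgeR test (0 also at an unadjusted p under 0.05, and 0 by DESeq2 or limma-voom). Clstn1, a calsyntenin gene, led with 41.9 ± 1.78 and 43.0 ± 3.54 CPM (SD, n = 3), and Celsr1, a planar polarity cadherin, had 6.46 ± 0.24 and 5.80 ± 0.46 CPM (SD, n = 3).

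**Figure D4:**
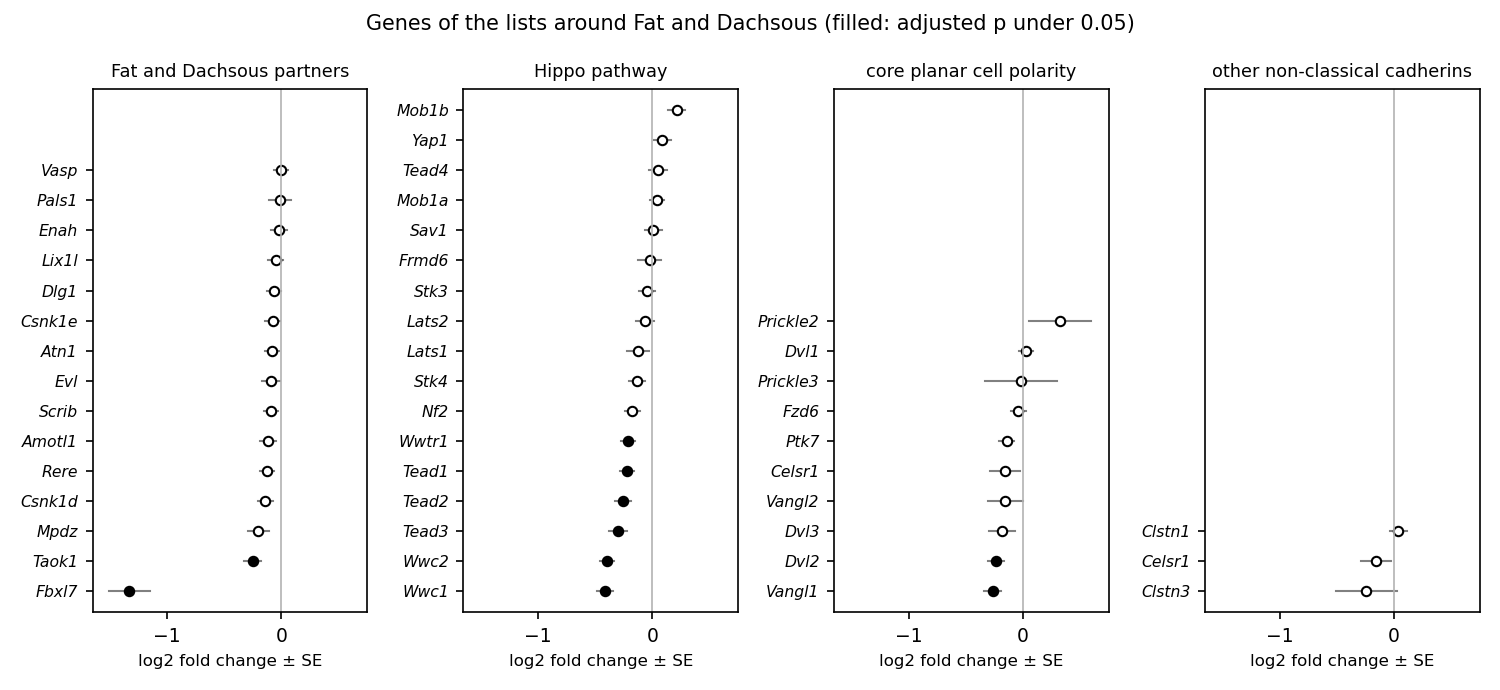
Log2 fold change of knockdown over control with its SE for every tested gene of the 4 lists around Fat and Dachsous; filled points have an edgeR adjusted p under 0.05. Fbxl7, at -1.33, stands apart from the other partner genes, which lie at -0.25 or above.

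The genes whose pattern over the 6 libraries was most like a member were sought for the 2 members with at least 1 CPM in every library. For Fat1, the highest Pearson correlations of log2 CPM were with Uck2, a pyrimidine salvage kinase gene (r = 0.996), Vps11, a vesicle tethering gene (0.987), and Cnot1, the scaffold of the CCR4-NOT deadenylase (0.985). Of 8040 genes compared, 40 had r over 0.95 with Fat1. Uck2 was at 85.8, 101 and 110 CPM in the controls, replicates 1 to 3, and at 91.4, 91.8 and 86.5 CPM after knockdown, so control replicates 3 and 2 were its highest libraries, as they were for Fat1. For Fjx1 the 3 highest were Prkcd, a protein kinase C gene (0.995), Fam234a (0.983) and Asl, a urea cycle enzyme gene (0.982). The points share their 6 libraries and depth, and the correlations are a description only.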

How the data were processed

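Messenger RNA was made into tagmented cDNA libraries, per the labels' protocols. Per the submitters' processing notes, the build was GRCm39 and the tools were STAR 2.7.11, SAMtools 1.22.1, fastp 0.24.0, MultiQC 1.32 and FastQC 0.12.1. The sources used here do not give the counter, the strand setting or the annotation release. The deposited values are estimated counts per gene, 29.0% of nonzero values not whole (tolerance 1e-06), and CPM values that equal, as deposited, each count divided by the library total. Of 78409 rows, 92 are spike-ins and were left out. Where rows shared a symbol, the one with the most counts was used.

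Counts were rounded, and low genes were removed with filterByExpr. In R 4.3.3, edgeR 4.0.16 then gave TMM factors and quasi-likelihood tests (robust empirical Bayes, no block), called at an adjusted p under 0.05. The SE is the log2 fold change divided by the square root of F, and intervals cover 95%. CPM values use unrounded counts and TMM-scaled totals. Alternatives were other scalings and filters, DESeq2 1.42.0, limma-voom (limma 3.58.1), rounding down, the replicate number as a block, omission of single libraries, and offsets for exon length, alone or with GC content (mgcv 1.9-3, with GC from GRCm38 transcripts, known for 95.6% of tested genes and set to the median for the rest). Non-robust empirical Bayes was added after seeing the data. The workflow was tested on simulated counts. Figures were drawn with matplotlib.

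Members and lists were chosen with earlier results of these data known. Named genes are the 7 members, the called genes of each list (the 4 of smallest adjusted p where more than 4; the 2 of highest CPM where none), the 2 most abundant markers of each class with endothelial markers at 0, and the 3 genes of most similar pattern. Replicates differed by more than sampling noise. Chi-square per degree of freedom ran from 2.45 (control replicates 2 and 3) to 9.20 (control replicates 1 and 3). All libraries were kept.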

Additional observations from a re-analysis of the deposited data

How the results depend on the processing

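Under every alternative run, Fat4 kept a negative log2 fold change. Its call was lost in limma-voom (-1.04, adjusted p 0.0674) and with GC and length correction (-0.99). Fits without one library gave -1.44 to -0.82, and all of them lost the call except the one without control replicate 1. DESeq2 gave Fat4 no adjusted p (unadjusted p = 0.018), and the filter at 10 CPM removes Fat4 and Fjx1. Fat1 changed sign with GC and length correction (0.047), and fits without one library gave -0.23 to -0.045, of which the one without control replicate 1 passed. Fjx1 kept its direction and missed the threshold in all 17 alternatives run for it. Dchs2 and both summed levels kept their direction in the 7 alternatives run for each, which did not include the length and GC corrections. The number of changed genes was 2324, against 1535 by DESeq2, 1659 with GC and length correction and 1029 to 3077 without one library. Library-size scaling moved the share of higher calls from 51.4% to 32.9%. Deviations from the group mean had correlations of -0.20, -0.16 and 0.14 between same-numbered libraries of both groups. Between differently numbered libraries they ran from -0.2 to 0.264. So few values cannot settle whether the numbers pair the samples. With the replicate block Fat4 had a log2 fold change of -1.12, Fat1 -0.13 and Fjx1 -0.43, and 2001 genes changed. The cause of these differences was not tested. Depth limits Fat2, Fat3, Dchs1 and Dchs2, for which no test across genes was possible with the filter.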
